A study of Mus musculus with 10 samples.

Results

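The hypoxia response genes examined here are Hif1a, Egln3, Vegfa, Adm, Slc2a1, Pgk1, Ldha, Pdk1, Bnip3 and Ankrd37, 10 of the 35705 mouse genes quantified. They were taken by symbol from a list of names that was chosen with earlier results of these data known. All 10 passed the filter, a mean of 1 TPM or more over all mice. TPM is the abundance of a transcript after allowing for its length, as a part of a fixed library total. The levels come from RNA sequencing of the cartilage cap of the medial knee, with 1 library for each of 10 individual mice. The wild-type group has 5 mice labelled as wild-type controls, and the null group has 5 mice that lack miR-324, the microRNA encoded by Mir324. No mouse was treated. The labels name no driver or cell type for the null allele, so a difference need not arise in the cartilage cells themselves. The labels give no strain, age, sex, litter or sequencing batch, and a batch that follows the genotype cannot be told apart from it.

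Cells sense falling oxygen through the hypoxia-inducible factors, or HIFs, transcription factors made of an alpha subunit and the stable partner Arnt. In well-oxygenated cells prolyl hydroxylases of the Egln family mark the alpha subunit, the von Hippel-Lindau protein (Vhl) binds the mark, and the subunit is destroyed. When oxygen is low the alpha subunit persists, enters the nucleus and switches on genes for glucose uptake, glycolysis, blood vessel growth and removal of mitochondria. Cartilage has no blood vessels, and chondrocytes depend on HIF-1 alpha for survival and matrix production in the growth plate. HIF-1 alpha is controlled mainly as a protein, so the RNA level of Hif1a is not a measure of HIF activity.

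The labels name the cell type chondrocyte, while the libraries held RNA of several tissues. Markers of cartilage chondrocytes summed to between 1627 and 6145 TPM per library, and 8 of the 9 were above 0 in every mouse, with Matn3 and Col9a1 below the filter. Markers of osteoblasts and osteocytes summed to between 2968 and 12649 TPM, and 7 genes of the red cell lineage to between 112640 and 263631 TPM. In a bulk library fewer cells of a type and less RNA per cell cannot be told apart. Wild-type mouse 1 stood apart in these genes. It had the highest level of the 10 mice in 9 of the 10 hypoxia response genes, where it was highest in 33.6% of all 13841 genes tested. The difference of each of the 10 genes is therefore given with and without this mouse. The comparisons of cell type markers, the fits that adjust for them and some related genes are given with all 10 mice only.

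All 10 genes had a lower mean in the null mice, and 0 passed correction for multiple testing. On the log2(TPM + 1) scale the differences, null minus wild-type, ran from -0.74 for Bnip3 to -0.012 for Pdk1, with a median of -0.40 against -0.045 over all genes tested. In the limma model fitted over all genes, 0 of the 10 had an adjusted p under 0.05, as did 0% of all genes. At an unadjusted p under 0.05, Bnip3, Adm and Hif1a were lower, 3 of 10 genes against 7.3% of all genes, and 0 were higher, against 4.28% (11.6% in both directions). An estimate below 0 was found for 10 of 10 genes, against 60% of all genes, and for 9 of 10 after median ratio scaling (49.3% of all genes), after quantile normalization (49.2%) or after removal of the haemoglobin genes (42.5%), where Pdk1 was above 0. The groups overlapped in all 10 genes, so that 0 of 10 were separated by genotype, where 1.06% of all genes lay wholly lower in the null mice. Without wild-type mouse 1 the median difference was -0.22 against -0.016 over all genes. Then 8 of 10 estimates were below 0, against 53.9% of all genes, and 2 genes, Bnip3 and Adm, were lower at an unadjusted p under 0.05, against 4.46%, and 0 were higher, against 3.85% (8.31% in both directions).

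**Figure D1:**
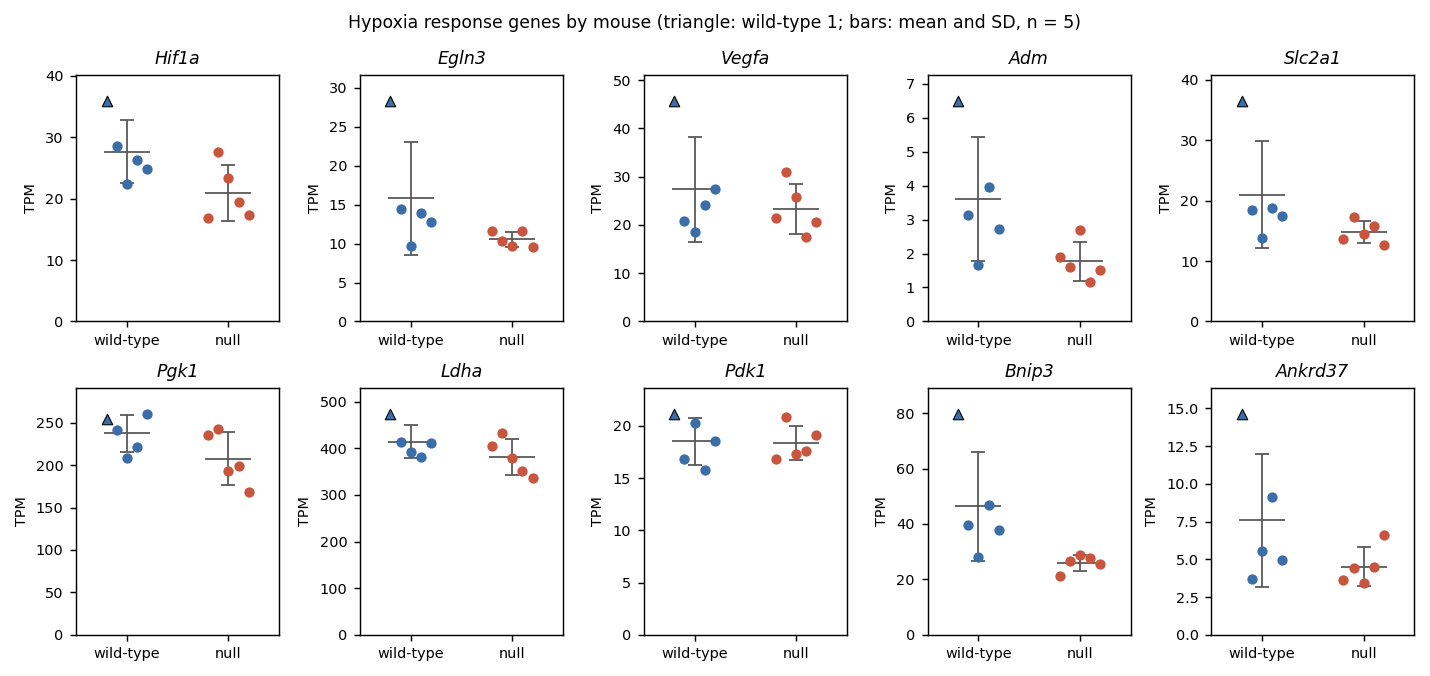
Level of each hypoxia response gene in TPM (vertical axes from 0, a scale for each gene) in the 5 wild-type mice (blue) and the 5 null mice (red), with the mean and SD of each group as bars. The triangle marks wild-type mouse 1, which is the highest point in 9 of the 10 panels, and the groups overlap in every panel.

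The promoters of these genes are shown because HIFs bind a short core, the letters ACGTG or GCGTG. RefSeq windows (GRCm38.p6) from 250 bases before to 50 bases after a RefSeq start of a gene were given for all 10 genes, 13 windows in all. At least 1 core on either strand was found for 10 of 10 genes and in 11 of the 13 windows, where 43.8% of all 32851 windows and 60.6% of the 12776 windows of genes tested held one. CACGTG reads the same on both strands and was counted on each. One stretch per gene follows, on the gene's strand from 5′ to 3′, with the core or its reverse complement in capitals. The stretches of Hif1a, Vegfa, Ldha and Ankrd37 lie wholly inside the gene spans given below, which begin at other starts than these RefSeq windows. The capitals begin 70 bases upstream of the RefSeq start for Hif1a, 229 for Egln3, 211 for Vegfa, 54 for Adm, 36 for Slc2a1, 150 for Pgk1, 47 for Ldha, 78 for Pdk1, 107 for Bnip3 and 152 for Ankrd37. 
Hif1a (chr12:73907787-73907811, plus strand): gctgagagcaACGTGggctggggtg
Egln3 (chr12:54204089-54204113, minus strand): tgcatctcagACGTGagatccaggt
Vegfa (chr17:46025360-46025384, minus strand): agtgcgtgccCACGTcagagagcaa
Adm (chr7:110627593-110627617, plus strand): caaatctgacCACGCccaccgtccg
Slc2a1 (chr4:119108699-119108723, plus strand): cccgccccggACGTGctccccaggc
Pgk1 (chrX:106186940-106186964, plus strand): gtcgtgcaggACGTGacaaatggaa
Ldha (chr7:46845747-46845771, plus strand): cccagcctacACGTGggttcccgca
Pdk1 (chr2:71873136-71873160, plus strand): gcctacatggGCGTGtctttaacca
Bnip3 (chr7:138909599-138909623, minus strand): cacgcgccgcACGTGccacacgctc
Ankrd37 (chr8:45999988-46000012, minus strand): cactgcgcacGCGTGctgcggccgc
The stretch of Vegfa comes from its second window, and its first window held 0 matches. A match is a description of letters and not a site of binding.

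The mature strands of the deleted microRNA are shown because a microRNA pairs with messenger RNAs through its seed, bases 2 to 8, given here in capitals. Both are encoded on the plus strand of chromosome 11 in GRCm38.p6, the 5p strand at 70012060 to 70012082 and the 3p strand at 70012095 to 70012114. The last lines give the matches found in Slc2a1 and Pdk1, with the letters complementary to the 3p seed in capitals.
mmu-miR-324-5p: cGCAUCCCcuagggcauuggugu
mmu-miR-324-3p: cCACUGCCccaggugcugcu
Slc2a1-201 3′ UTR, from 10 bases before the match at base 984 of 1537: tggggatcctGGCAGTGtcccttttgt
Pdk1-201 3′ UTR, from 10 bases before the match at base 2250 of 3734: tatttcaccaGGCAGTGgtggcgcacg
In each gene's coding transcript with the longest 3′ UTR, a match to the 5p seed (GGGATGC) was found in 0 of the 10 genes, where 8.5% of 12596 genes held one. A match to the 3p seed (GGCAGTG) was present in 2 of the 10, where 15.4% of those genes held one. Over all 20 coding transcripts of the 10 genes with a 3′ UTR, matches were found in the same 2 transcripts. The 3′ UTR of Slc2a1-204, a transcript annotated for nonsense-mediated decay, held 0 matches. The microRNA was not analysed here, and the genotype of each mouse is taken from the labels alone.

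The control of HIF was examined through Hif1a and Egln3. Hif1a (ENSMUSG00000021109, chromosome 12, 73901375 to 73947530, plus strand), the oxygen-labile subunit, stood at 35.9, 28.6, 22.4, 26.3 and 24.9 TPM in wild-type mice 1 to 5. It stood at 16.9, 27.6, 23.3, 19.5 and 17.3 TPM in null mice 1 to 5. All null mice lay below the wild-type mean, and null mice 1, 4 and 5 lay below every wild-type mouse. Null mouse 2 lay between wild-type mice 4 and 2. The group means were 27.6 ± 5.14 and 20.9 ± 4.51 TPM (SD, n = 5). The difference was -0.39 (SE 0.158) on the log2(TPM + 1) scale, with a limma p of 0.0289, 0.38 after Benjamini-Hochberg adjustment over all genes, and an exact permutation p of 0.0635. Without wild-type mouse 1 it was -0.30, with a limma p of 0.0723 and an exact permutation p of 0.111.

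Egln3 (ENSMUSG00000035105, chromosome 12, 54178981 to 54203860, minus strand), a prolyl hydroxylase that marks the alpha subunits and is itself a HIF target, stood at 28.3, 14.4, 9.65, 13.9 and 12.8 TPM in wild-type mice 1 to 5. In null mice 1 to 5 it stood at 11.6, 10.3, 9.7, 11.6 and 9.6 TPM. The null mice lay close together below all wild-type mice but mouse 3, and wild-type mouse 1 stood far above the rest. The group means were 15.8 ± 7.24 and 10.6 ± 0.975 TPM (SD, n = 5). The difference of -0.46 (SE 0.22, log2 scale) had a limma p of 0.061, an adjusted p of 0.457 and an exact permutation p of 0.0476. It was -0.23 without wild-type mouse 1, with a limma p of 0.101 and an exact permutation p of 0.119.

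Vegfa and Adm encode secreted signals, the main growth factor of blood vessels and the vessel-widening peptide adrenomedullin. Vegfa (ENSMUSG00000023951, chromosome 17, 46016993 to 46032369, minus strand) stood at 45.7, 20.9, 18.5, 24.2 and 27.5 TPM in wild-type mice 1 to 5 and at 21.5, 30.9, 25.8, 17.6 and 20.6 TPM in null mice 1 to 5. Apart from wild-type mouse 1, the groups covered a similar range. The means were 27.4 ± 10.8 and 23.3 ± 5.19 TPM (SD, n = 5), and the difference of -0.18 (SE 0.224, log2 scale) had a limma p of 0.437 and an adjusted p of 0.839 (exact permutation p = 0.532). The sign turned without wild-type mouse 1, to 0.017 (exact permutation p = 0.944).

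Adm (ENSMUSG00000030790, chromosome 7, 110627661 to 110629820, plus strand) was the least abundant of the 10 genes. It stood at 6.49, 3.14, 1.66, 3.97 and 2.73 TPM in wild-type mice 1 to 5 and at 1.9, 1.6, 2.68, 1.17 and 1.51 TPM in null mice 1 to 5. Of the wild-type mice, 4 lay above every null mouse, and wild-type mouse 3 lay among the null mice. The means were 3.6 ± 1.82 and 1.77 ± 0.568 TPM (SD, n = 5). The difference was -0.67 (SE 0.254, log2 scale), with a limma p of 0.0224, an adjusted p of 0.358 and an exact permutation p of 0.0317. It was -0.47 without wild-type mouse 1, with a limma p of 0.0499 and an exact permutation p of 0.0635. At this level the added pseudocount of 1 makes the log2 difference smaller, and with a pseudocount of 0.1 it was -0.90.

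Slc2a1, Pgk1, Ldha and Pdk1 carry glucose carbon towards lactate. Slc2a1 (ENSMUSG00000028645, chromosome 4, 119108711 to 119137983, plus strand), the glucose transporter GLUT1, stood at 36.5, 18.4, 13.8, 18.8 and 17.4 TPM in wild-type mice 1 to 5 and at 13.6, 17.3, 14.4, 15.8 and 12.7 TPM in null mice 1 to 5. As with Egln3, wild-type mouse 1 stood far above a narrow band that held the other mice. The means were 21 ± 8.87 and 14.8 ± 1.81 TPM (SD, n = 5). The difference of -0.41 (SE 0.209, log2 scale) had a limma p of 0.0746, an adjusted p of 0.487 and an exact permutation p of 0.0635, and it was -0.20 without wild-type mouse 1 (exact permutation p = 0.135).

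Ldha and Pgk1 were by far the most abundant of the 10 genes, with coefficients of variation between 8.61% and 15.1% within a genotype. Pgk1 (ENSMUSG00000062070, chromosome X, 106187100 to 106203699, plus strand), which catalyses the first ATP-forming step of glycolysis, stood at 255, 242, 209, 221 and 260 TPM in wild-type mice 1 to 5 and at 236, 243, 193, 199 and 168 TPM in null mice 1 to 5. Ldha (ENSMUSG00000063229, chromosome 7, 46841475 to 46855627, plus strand), the lactate dehydrogenase subunit that favours conversion of pyruvate to lactate, stood at 473, 413, 392, 382 and 411 TPM and at 406, 432, 380, 352 and 336 TPM in the same order. In both genes the null mice reached from within the wild-type range to below it. The difference of Pgk1 was -0.20 (SE 0.112, log2 scale), with a limma p of 0.1 and an adjusted p of 0.53, and that of Ldha was -0.12 (SE 0.0916), with a limma p of 0.209 and an adjusted p of 0.675. The exact permutation p was 0.127 for Pgk1 and 0.198 for Ldha. The differences without wild-type mouse 1 were -0.17 and -0.073.

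Pdk1 (ENSMUSG00000006494, chromosome 2, 71873224 to 71903858, plus strand) encodes a kinase that inactivates pyruvate dehydrogenase and so blocks the conversion of pyruvate to acetyl-CoA. It stood at 21.1, 16.8, 20.3, 15.8 and 18.5 TPM in wild-type mice 1 to 5 and at 16.8, 20.8, 17.3, 17.6 and 19.1 TPM in null mice 1 to 5. Neither group sat above the other. The difference was -0.012 (SE 0.106, log2 scale), with a limma p of 0.91, an adjusted p of 0.982 and an exact permutation p of 0.905, and its sign turned without wild-type mouse 1 (0.035). Its match to the 3p seed is shown above, as is that of Slc2a1.

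Bnip3 (ENSMUSG00000078566, chromosome 7, 138890836 to 138909519, minus strand) encodes a protein of the outer mitochondrial membrane that recruits the machinery of mitophagy. It stood at 79.6, 39.8, 28, 46.8 and 37.8 TPM in wild-type mice 1 to 5 and at 21.2, 26.7, 28.7, 27.6 and 25.4 TPM in null mice 1 to 5. Only null mouse 3 and wild-type mouse 3 crossed, and by a small margin. The means were 46.4 ± 19.7 and 25.9 ± 2.91 TPM (SD, n = 5), and the coefficient of variation was 42.5% in wild-type and 11.2% in null mice. The difference was -0.74 (SE 0.221, log2 scale), with a limma p of 0.00619, an adjusted p of 0.312 and an exact permutation p of 0.0159, where 0.00794 is the smallest p that 5 against 5 mice allow. Without wild-type mouse 1 it was -0.52 (SE 0.146), with a limma p of 0.0044, an adjusted p of 0.469 and an exact permutation p of 0.0159. The unadjusted limma p was under 0.05 in 19 of 21 alternative analyses and the adjusted p in 0 of them. The exceptions were the fits with a bone cell marker score (-0.15) or a red cell marker score (-0.41) as a covariate.

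Ankrd37 (ENSMUSG00000050914, chromosome 8, 45996902 to 46005707, minus strand), a small ankyrin repeat protein known as a HIF target, stood at 14.6, 3.67, 5.53, 9.14 and 4.96 TPM in wild-type mice 1 to 5 and at 3.63, 4.43, 3.4, 4.52 and 6.62 TPM in null mice 1 to 5. Wild-type mice 1 and 4 stood above all others, and the remaining mice of both groups were mixed. The means were 7.58 ± 4.42 and 4.52 ± 1.27 TPM (SD, n = 5). The difference of -0.53 (SE 0.296, log2 scale) had a limma p of 0.102, an adjusted p of 0.532 and an exact permutation p of 0.175, and it was -0.28 without wild-type mouse 1 (exact permutation p = 0.341). The annotated gene overlaps Ufsp2 on the opposite strand over 57 bases. Ufsp2 averaged 31.7 TPM, and since the use of strand is not given in the sources used here, reads in the overlap cannot be assigned with certainty.

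By mean level over the 10 mice, the order was Ldha (398 TPM), Pgk1 (222 TPM), Bnip3 (36.2 TPM), Vegfa (25.3 TPM), Hif1a (24.3 TPM), Pdk1 (18.4 TPM), Slc2a1 (17.9 TPM), Egln3 (13.2 TPM), Ankrd37 (6.05 TPM) and Adm (2.68 TPM). Each of Ldha, Pgk1, Slc2a1, Egln3 and Ankrd37 was above the next gene in all 10 mice. Neighbours in the middle of the order were not separated, with Vegfa above Hif1a in 6 of 10 mice and Pdk1 above Slc2a1 in 7 of 10. A processed pseudogene of Pgk1, Pgk1-ps1, was listed at 4.18 TPM, and reads could be shared between it and the parent gene.

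The excess in wild-type mouse 1 was unequal among the genes. Its level was 2.51 times the mean of the other wild-type mice for Ankrd37, 2.26 times for Adm, 2.23 times for Egln3, 2.13 times for Slc2a1, 2.09 times for Bnip3 and 2.01 times for Vegfa. Hif1a was 1.4 times as high, and Ldha, Pdk1 and Pgk1 were 1.19, 1.18 and 1.1 times as high. On the log2(TPM + 1) scale, 4 of the 10 genes (Ankrd37, Egln3, Bnip3 and Slc2a1) were more than 1 above the mean of the other wild-type mice, against 4.08% of all genes tested. Of these 4, 3 had a small spread in the null group, with an SD on that scale of 0.121 for Egln3 and 0.164 for Slc2a1 and Bnip3, against a median of 0.227 over all genes.

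Levels of the 10 genes were correlated between mice, and less so when wild-type mouse 1 was left out. Over the 45 pairs of genes and the 10 mice, Pearson's r on the log2(TPM + 1) scale ran from 0.00 to 0.96 with a median of 0.68, and Spearman's rho had a median of 0.55. Permutation p-values adjusted over the 45 pairs were under 0.05 for 18 pairs by r and for 5 by rho. With the 2 mice farthest from the median of the first gene of each pair left out, the median r was 0.40, and without wild-type mouse 1 it was 0.38. Pgk1 and Ldha were correlated with r = 0.88 (permutation p = 0.00044, adjusted 0.00596) and rho = 0.90 (p = 0.00056, adjusted 0.0238). For this pair r was 0.83 without null mice 3 and 5, the 2 farthest in Pgk1, and 0.90 without wild-type mouse 1. The relation thus did not rest on these mice. Egln3 and Pdk1, in contrast, had r = 0.19 (permutation p = 0.658, adjusted 0.705) and rho = -0.21 (p = 0.561, adjusted 0.664). For these genes r was -0.63 without wild-type mice 1 and 2, the 2 farthest in Egln3. All values share the library total of each mouse, and genotype and mouse differences both enter these correlations.

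The genes whose levels followed a hypoxia response gene most closely were sought among the 7982 genes that averaged 10 TPM or more, by r over the 10 mice. P4ha2, a subunit of the collagen prolyl hydroxylase, was first for Egln3 (r = 0.96) and for Slc2a1 (r = 0.98), and without wild-type mouse 1 these values were 0.83 and 0.90. Slc2a1 was the second for Egln3 (0.96), and Papss2, which makes the sulphate donor for proteoglycans, was the second for Slc2a1 (0.97). Bnip3 was followed by Scin and Sdc4 (0.99 each, and 0.98 and 0.96 without wild-type mouse 1), Adm by Atf5 (0.98) and Atp6v1d (0.97), and Vegfa by Ivns1abp and Cilp2 (0.95 each). Hif1a was followed by Tmem59 (0.98) and Slc6a6 (0.97), Ldha by Ccar2 (0.98) and Prkacb (0.97), Pgk1 by Lamtor4 and Id2 (0.95 each), and Pdk1 by Psat1 (0.92) and Wdr61 (0.91). As the highest of 7982 values over 10 mice, these are a description and carry no test.

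The deposited values are per transcript, and for several genes the TPM came largely from transcripts annotated as not coding for protein. For Slc2a1, transcript Slc2a1-204, annotated as a target of nonsense-mediated decay, held 71.5% of the gene's TPM on average (66.4% to 78.8% over the mice), and the coding transcript Slc2a1-201 held 26.9%. For Pdk1, the processed transcript Pdk1-208 held 43.8% and the coding transcript Pdk1-201 held 24%. For Ankrd37, the retained-intron transcript Ankrd37-204 held 43.7%, with a range from 0.0741% to 73.8%. Coding transcripts made up 63.1% of Vegfa, 93.5% of Bnip3, 96.4% of Pgk1, 98.6% of Hif1a and 98.9% of Ldha, and Egln3 had a single transcript, which is coding. The gene values of Slc2a1, Pdk1 and Ankrd37 are thus largely sums over transcripts that encode no full protein in the annotation. In coding transcripts alone the wild-type mean of Slc2a1 was 6.13 ± 2.37 TPM and the null mean 4.12 ± 1.11 TPM (SD, n = 5).

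**Figure D2:**
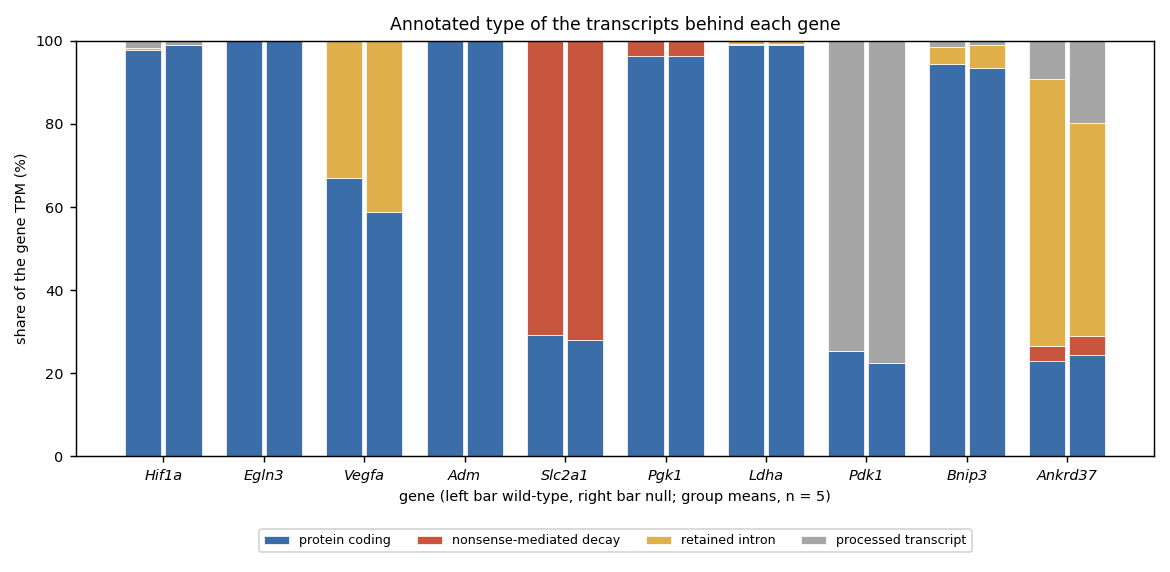
Share of each gene's TPM (vertical axis, percent) held by transcripts of each annotated type, from the mean TPM of the 5 wild-type mice (left bar) and the 5 null mice (right bar). Protein-coding transcripts (blue) fill most of the bar for Hif1a, Egln3, Adm, Pgk1, Ldha and Bnip3 and under 30% of it for Slc2a1, Pdk1 and Ankrd37.

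The share of the most abundant transcript was compared between genotypes for the 9 genes with more than 1 transcript, with exact permutation tests over the mice, and after Benjamini-Hochberg adjustment over the 9 the smallest p was 0.9. For Hif1a the share of Hif1a-201 was 44.7% in wild-type mouse 1 and between 64.1% and 67.3% in the other wild-type mice. In that mouse Hif1a-202, also coding, stood at 19.5 TPM, against 7.77 to 8.76 TPM in the other wild-type mice, while Hif1a-201 stood at 16.1 TPM, within their range of 14.6 to 18.3 TPM. The higher Hif1a level of wild-type mouse 1 thus lay in Hif1a-202. For Bnip3 the share of Bnip3-201 was 82.6% ± 6.62 in wild-type and 87.2% ± 3.52 in null mice (SD, n = 5, exact permutation p = 0.206, adjusted 0.9).

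A share within a gene family is the same under any rescaling of a library, and 6 such shares were compared. Bnip3 took 28.5%, 11.5%, 7.08%, 13% and 11.9% of the summed TPM of Bnip3 and its relative Bnip3l in wild-type mice 1 to 5. It took 6.53%, 8.38%, 8.82%, 6.62% and 6.32% in null mice 1 to 5. All wild-type mice but mouse 3 lay above every null mouse. The difference of -7.06 percentage points had an exact permutation p of 0.0238, 0.143 after Benjamini-Hochberg adjustment over the 6 shares, and without wild-type mouse 1 it was -3.54 (exact permutation p = 0.0317). Bnip3l, the mitophagy receptor that clears mitochondria from maturing red cells, averaged 293 ± 61 TPM in the wild-type and 331 ± 47.5 TPM in the null group (SD, n = 5, exact permutation p = 0.317). It stood at 200 TPM in wild-type mouse 1 and at 281 to 368 TPM in the other wild-type mice, so the share also moves with Bnip3l. The part of red cell content in this share was not tested.

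The other 5 shares did not pass an unadjusted p of 0.05. Slc2a1 took 29.3% ± 12.4 of the summed TPM of Slc2a1 and Slc2a3 in wild-type and 19.9% ± 3.65 in null mice (SD, n = 5, exact permutation p = 0.103, adjusted 0.222), and in wild-type mouse 1 it took 50.1%. Without that mouse the difference of -9.35 percentage points was -4.15 (exact permutation p = 0.183). Egln3 took 23.8% ± 5.23 and 19.3% ± 2.48 of the Egln family (SD, n = 5, exact permutation p = 0.111, adjusted 0.222), a difference of -4.5 percentage points that was -2.4 without wild-type mouse 1. Hif1a took 48.4% ± 1.17 and 49.6% ± 4.4 of the sum of Hif1a and Epas1, which encodes the alpha subunit of HIF-2 (SD, n = 5, exact permutation p = 0.611, adjusted 0.611). The RNAs of the 2 alpha subunits were thus present at nearly equal levels, and wild-type mouse 1, at 50%, was the highest of its group in this share by a small margin. Ldha took 94.3% ± 2.19 and 95.6% ± 0.999 of the sum with Ldhb, and Pdk1 took 28.6% ± 1.71 and 30.1% ± 2.09 of the Pdk family (SD, n = 5, exact permutation p = 0.278 and 0.222, adjusted 0.333 each).

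**Figure D3:**
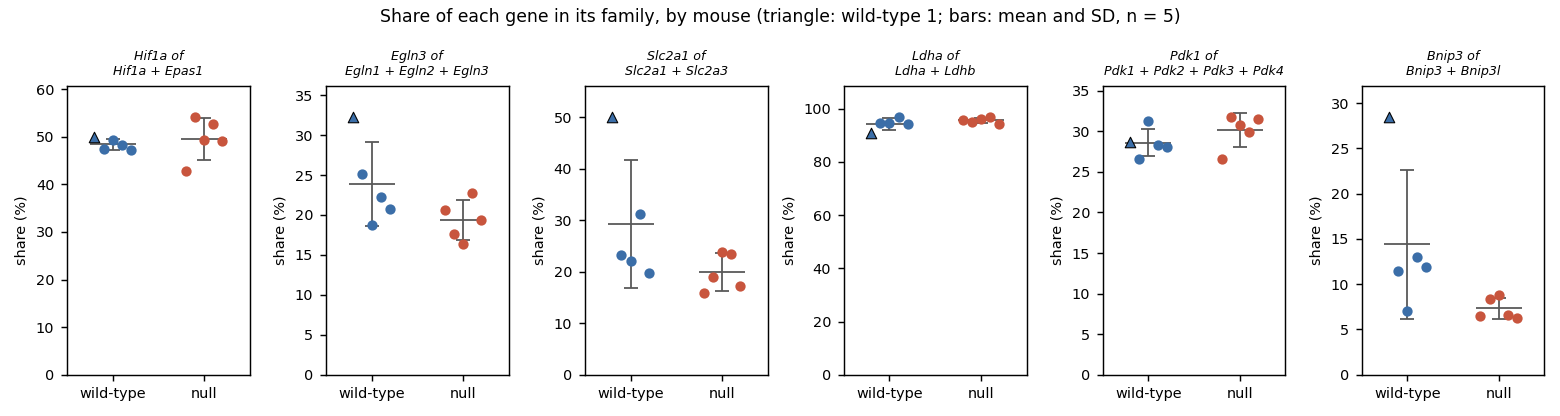
Share of 6 hypoxia response genes in the summed TPM of their gene families (vertical axes, percent, from 0) in the 5 wild-type mice (blue) and 5 null mice (red), with mean and SD. Wild-type mouse 1 (triangle) is the highest wild-type mouse for Hif1a, Egln3, Slc2a1 and Bnip3, and the null mice lie between 6.32% and 8.82% for Bnip3.

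Further genes of the pathway were taken from 5 lists, also chosen with earlier results of these data known. They held 76 genes, of which 72 passed the filter. At an unadjusted limma p under 0.05, 14 were lower and 6 higher in the null mice, against 7.3% and 4.28% of all genes, and 0 passed adjustment. Without wild-type mouse 1 the counts were 8 lower and 4 higher, against 4.46% and 3.85% of all genes. In the HIF system list, 1 of 12 genes tested was lower and 0 were higher, against 7.3% and 4.28% of all genes. The median difference was -0.11, against -0.045 over all genes. The lower gene was Epas1, at 35.9, 31.7, 23.1, 28.2 and 27.8 TPM in wild-type mice 1 to 5 and 22.6, 23.3, 23.9, 17.6 and 18 TPM in null mice 1 to 5. Its difference was -0.46 (SE 0.134, log2 scale), with a limma p of 0.00536, an adjusted p of 0.308 and an exact permutation p of 0.0238, and it was -0.38 without wild-type mouse 1. The other parts of the oxygen switch had limma p-values over 0.05, with differences of -0.28 for Egln1, -0.17 for Vhl, -0.042 for Arnt, -0.011 for Egln2 and 0.12 for Hif1an, the asparagine hydroxylase of HIF.

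Among glycolysis and lactate genes, 0 of 19 were lower and 3 were higher at an unadjusted limma p under 0.05, against 7.3% and 4.28% of all genes, with a median difference of -0.055. That median turned to 0.026 without wild-type mouse 1, to 0.058 without null mouse 5 and to 0.035 after removal of the haemoglobin genes. The medians over all genes in these fits were -0.016, -0.00081 and 0.036. With a bone cell or a red cell marker score as a covariate the list median was 0.11 and 0.20, against 0.081 and 0.086 over all genes. In those 2 fits 1 and 5 genes of the list were higher, against 5.1% and 7.03% of all genes, and 0 were lower. The 3 genes higher in the fit without a covariate were Slc16a1 (MCT1, a lactate transporter), Hk1 (a hexokinase abundant in red cells) and Pfkm (a phosphofructokinase). Slc16a1 averaged 44.5 ± 10.5 TPM in the wild-type group and 58.5 ± 3.96 TPM in the null group (SD, n = 5) and differed by 0.42 on the log2 scale (exact permutation p = 0.0317, limma adjusted p = 0.342). Hk1 differed by 0.24 (exact permutation p = 0.0159, limma adjusted p = 0.342) and Pfkm by 0.28 (exact permutation p = 0.0476, limma adjusted p = 0.395), with a limma p over 0.05 for Pfkm without wild-type mouse 1. Slc2a3, Ldhb and Gapdh differed by 0.25, -0.45 and -0.064, each with a limma p over 0.05. In the pyruvate dehydrogenase list, 1 of 8 genes was lower and 0 were higher, against 7.3% and 4.28% of all genes. The lower gene was Pdk4, which stood at 6 ± 2.5 and 3.7 ± 0.928 TPM (SD, n = 5). Its difference was -0.53 (limma p of 0.0464, adjusted 0.427, exact permutation p = 0.0794). It was -0.35 without wild-type mouse 1, with a limma p of 0.115. Pdk2 differed by -0.04 (exact permutation p = 0.754).

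The list of other HIF targets had a median difference of -0.36 over 25 genes tested, 10 of them lower and 3 higher at an unadjusted limma p under 0.05, against 7.3% and 4.28% of all genes. The lower ones were 5 without wild-type mouse 1, against 4.46% of all genes, with a median of -0.22 against -0.016 over all genes. They were 5 without null mouse 5, against 4.84% of all genes. With a bone cell marker score in the model 0 were lower and 2 higher, against 0.824% and 5.1% of all genes. The median was then 0.075, against 0.081 over all genes. Stc2, the secreted glycoprotein stanniocalcin 2, stood at 11.6, 4.65, 4.66, 7.53 and 5 TPM in wild-type mice 1 to 5 and at 1.98, 2.16, 3.21, 2.83 and 3.09 TPM in null mice 1 to 5. Every null mouse lay below every wild-type mouse. The difference was -1.01 (SE 0.227, log2 scale), with a limma p of 0.000844, an adjusted p of 0.277 and an exact permutation p of 0.00794, the smallest the design allows. It was -0.81 without wild-type mouse 1. Ak4, a mitochondrial adenylate kinase, was also separated by genotype, stood at 6.93 ± 1.9 and 3.98 ± 0.662 TPM (SD, n = 5), and differed by -0.65 (exact permutation p = 0.00794, limma adjusted p = 0.287). Lox, which crosslinks collagen, differed by -0.75 (exact permutation p = 0.0159, limma adjusted p = 0.292). Selenbp1, higher in the null mice, was separated as well (0.34, exact permutation p = 0.00794, limma adjusted p = 0.308). In all, 2 genes of this list lay wholly lower and 1 wholly higher in the null mice, against 1.06% and 0.881% of all genes. Pdk3, Bnip3l and Car9 differed by -0.044, 0.19 and 0.018 (exact permutation p = 0.762, 0.317 and 0.952). Epo was listed at 0 in all mice, and Car12, at 0.766 and 0.512 TPM, and Edn1 were below the filter.

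Among the receptors of the secreted signals, 2 of 8 were lower and 0 higher at an unadjusted limma p under 0.05, against 7.3% and 4.28% of all genes. Their median difference was -0.23, against -0.045 over all genes. Nrp2, a co-receptor for VEGF family members, averaged 36.8 ± 7.97 TPM in the wild-type and 22.6 ± 9.33 TPM in the null group (SD, n = 5) and differed by -0.73 (exact permutation p = 0.0317, limma adjusted p = 0.325). Ramp3, a partner of the adrenomedullin receptor, was lower in every null mouse than in every wild-type mouse, where 1.06% of all genes lay wholly lower. It was close to the filter, at 1.76 ± 0.477 and 0.901 ± 0.351 TPM (SD, n = 5), and differed by -0.54 (exact permutation p = 0.00794, limma adjusted p = 0.338). Without wild-type mouse 1 Nrp2 differed by -0.65 and Ramp3 by -0.44. The VEGF receptors Flt1 and Kdr differed by -0.28 and -0.13, the co-receptor Nrp1 by -0.24, the adrenomedullin receptor Calcrl by -0.017 and its partner Ramp2 by -0.21, each with a limma p over 0.05.

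**Figure D4:**
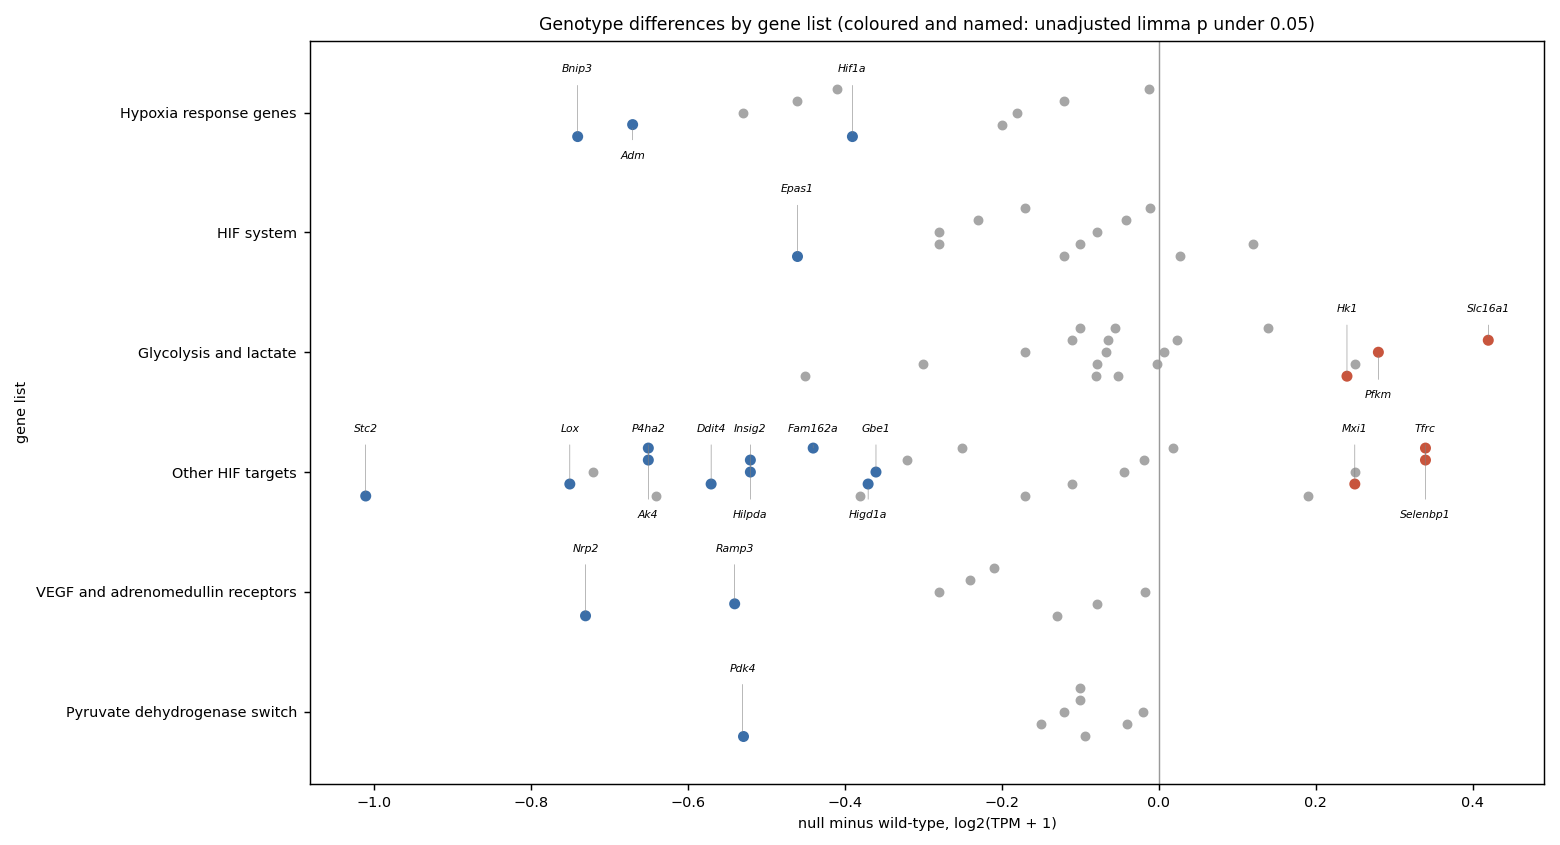
Genotype difference, null minus wild-type on the log2(TPM + 1) scale (horizontal axis), of each tested gene in the hypoxia response list and 5 related lists (rows). Genes with an unadjusted limma p under 0.05 are named, in blue where lower and in red where higher, and all 3 named glycolysis genes lie above 0 while the named hypoxia response genes lie between -0.74 and -0.39.

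Markers of bone cells were lower in the null mice beside the hypoxia response genes. Of the 10 osteoblast and osteocyte markers, 8 were lower in the null mice at an unadjusted limma p under 0.05, against 7.3% of all genes. They summed to between 5149 and 12649 TPM in wild-type and between 2968 and 5899 TPM in null mice, and 0 were at 0 in all mice. Their mean log2(TPM + 1) was 7.57 ± 0.457 and 6.74 ± 0.441 (SD, n = 5, exact permutation p = 0.0238, 0.0952 after adjustment over 12 marker lists), and wild-type mouse 1 was the highest, at 8.21. Of the 7 cartilage markers tested 5 were lower at the same threshold, against 7.3% of all genes. The list summed to between 1929 and 6145 TPM in wild-type and between 1627 and 2917 TPM in null mice. Its score differed by -0.47 (exact permutation p = 0.111, adjusted 0.167), with wild-type mouse 1 again the highest. Of the 7 red cell markers 4 were higher, against 4.28% of all genes, their score differed by 0.46 (exact permutation p = 0.0556, adjusted 0.0952), and wild-type mouse 1 was the lowest, at 11.9.

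The scores of osteoclast (-0.87), hypertrophic (-0.67), adipocyte (-0.54), B lineage (-0.42) and endothelial (-0.29) markers differed in the same direction as the hypoxia response genes, each with an adjusted exact permutation p of 0.0952. Those of neutrophil (-0.087), macrophage (-0.013), fibroblast (0.22) and skeletal muscle (0.41) markers had an adjusted p of at least 0.476. With the osteoblast and osteocyte score added to limma as a covariate, the differences of Bnip3, Ankrd37 and Pgk1 were -0.15, -0.14 and -0.083, and those of Egln3 and Adm -0.027 and -0.025. Those of Pdk1, Ldha, Hif1a, Slc2a1 and Vegfa were then above 0, at 0.0087, 0.018, 0.029, 0.11 and 0.39. In that fit 0 of the 10 genes had an unadjusted p under 0.05, where 0.824% of all genes were lower and 5.1% higher, and the median over all genes was 0.081. With the erythroid score in its place 0 of the 10 passed as well, where 1.77% of all genes were lower and 7.03% higher, and the median over all genes was 0.086. With the neutrophil score instead, 3 of the 10 were lower at that threshold, where 7.85% of all genes were lower and 4.83% higher. All 10 estimates were then below 0, with a median of -0.41, against -0.032 over all genes. The marker scores and the fits with a score as covariate were not repeated without wild-type mouse 1. The part of the makeup of the tissue in the lower levels was not tested.

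**Figure D5:**
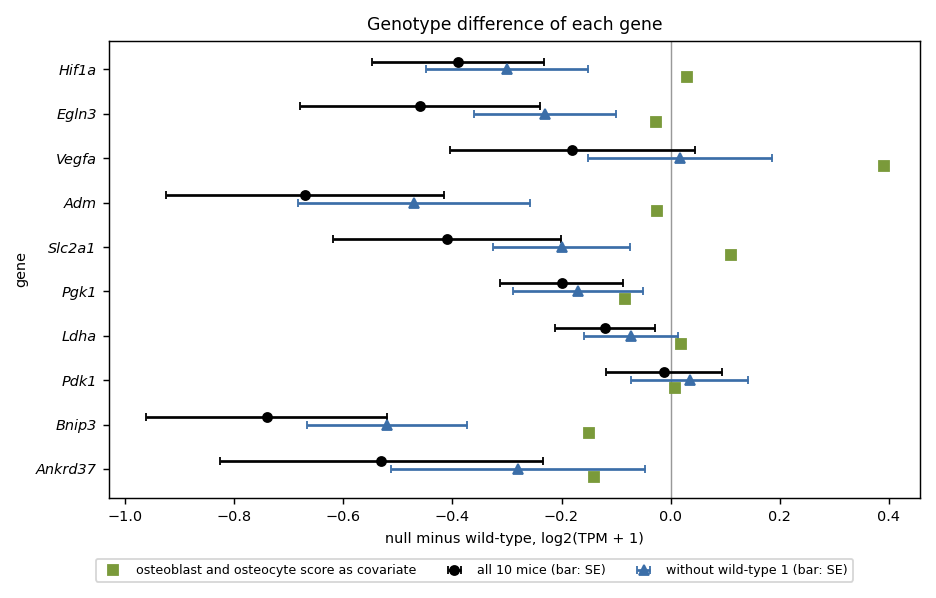
Genotype difference of each hypoxia response gene, null minus wild-type on the log2(TPM + 1) scale, from limma with all 10 mice (black, bar: SE), without wild-type mouse 1 (blue triangle, bar: SE) and with the score of osteoblast and osteocyte markers as covariate (green square, drawn without an error bar). Without wild-type mouse 1 the estimates lie between -0.52 for Bnip3 and 0.035 for Pdk1.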

How the data were processed

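RNA of knee articular cartilage from 5 wild-type and 5 Mir324-null mice was sequenced from low-input libraries with dual indexes, per the labels' protocols. The authors deposited TPM values for 116912 transcripts in 1 table whose name gives kallisto, with 1 column for each mouse and 0 columns of other samples. The submitters' processing notes list kallisto, DESeq2 and GRCh38, a human build, while the identifiers in the table are of mouse transcripts. Versions, index and read layout are not given in the sources used here. TPM carries no read counts, so the depth of each library is unknown, and no counting interval or count model was used.

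Identifiers without version were matched to GENCODE M21 (GRCm38) for 115440 transcripts, and TPM was summed per gene. The unmatched transcripts held 0.275% to 0.356% of a library and were left out. The 13841 genes that averaged 1 TPM or more were compared as log2(TPM + 1) with limma 3.58.1 (eBayes with trend, two-sided, no covariate) in R 4.3.3, with Benjamini-Hochberg adjustment over all of them and a threshold of 0.05. Single values were tested over the mice with the two-sided exact permutation test of group means, over 252 splits of 10 mice, and correlations with 100000 permutations. Tables and tests were made in Python 3.11.15 (pandas 2.3.3, numpy 2.4.6, scipy 1.17.1) and figures with matplotlib 3.10.9. The fit was tested on simulated data.

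The members and lists were chosen with earlier results of these data known. Named genes were the 10 members, a fixed set of partners, relatives and known targets in the 5 lists, up to 3 genes per list with the smallest limma p under 0.05, the 2 genes most correlated with each member, and pseudogenes of members at 1 TPM or more. The genes most correlated with Ankrd37 are not reported here. Selenbp1, Edn1, Epo, Matn3 and Col9a1 fall outside this rule and were named after their values were seen, and Ero1a of the list is Ero1l in the annotation. Promoter and microRNA sequences are from RefSeq (GRCm38.p6) and 3′ UTRs from GENCODE M21. Alternatives changed the pseudocount, the filter, the scaling, the covariate, the transcript used and the mice included.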

Additional observations from a re-analysis of the deposited data

Results flagged for a closer look

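A mouse lying far from the others of its group, by the gap to its nearest neighbour over the range of the group, was found in 6 of 48 groups checked, where chance alone flags about 1 in 20. Wild-type mouse 1 had 28.3 TPM of Egln3 where the other wild-type mice had 9.65 to 14.4 TPM, and 36.5 TPM of Slc2a1 where they had 13.8 to 18.8 TPM. Its share of Bnip3 in the sum of Bnip3 and Bnip3l was 28.5%, against 7.08% to 13% in the others. Its share of Hif1a-201 in the TPM of Hif1a was 44.7%, against 64.1% to 67.3%. Wild-type mouse 2 had 93.6% of Pgk1 in Pgk1-201, against 96.6% to 97.7% in the other wild-type mice, and 0.0741% of Ankrd37 in the retained-intron transcript Ankrd37-204, against 53.3% to 73.8%. The cause of these values was not tested.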

How the results depend on the processing

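Over the alternatives run, the adjusted limma p was over 0.05 for all 10 genes, the smallest being 0.124 for Bnip3 without wild-type mouse 3. Egln3, Adm, Bnip3 and Ankrd37 were below 0 in every alternative. The number of genes with an adjusted p under 0.05 was 0 in the fit of the report, 4 with the osteoblast and osteocyte covariate and 0 to 1 when single mice were left out. With the osteoblast and osteocyte covariate the sign turned for Hif1a (0.029), Vegfa (0.39), Slc2a1 (0.11), Ldha (0.018) and Pdk1 (0.0087), and with the erythroid covariate for Vegfa (0.33), Pgk1 (0.014), Ldha (0.05) and Pdk1 (0.064). Pdk1 was also above 0 after median ratio scaling (0.04), after quantile normalization (0.021) and without haemoglobin genes (0.074). These scalings moved the split of all genes at an unadjusted p under 0.05 from 1011 lower and 592 higher to 888 and 875, 929 and 884, and 577 and 1216. When single mice were left out, the difference lay between -0.30 and 0.017 for Vegfa, above 0 without wild-type mouse 1, and between -0.063 and 0.035 for Pdk1. The 14 lower genes of the related lists were 0 with the osteoblast and osteocyte covariate and 4 with the erythroid covariate, where 0.824% and 1.77% of all genes were lower. They were 8 to 19 when single mice were left out, with 8 without wild-type mouse 1 (4.46% of all genes) and without null mouse 5 (4.84%). The 6 higher ones were 3 with the osteoblast and osteocyte covariate, where 5.1% of all genes were higher. They were 3 to 6 when single mice were left out, with 3 without null mouse 2 (3.19% of all genes). With the most abundant transcript alone, the Pdk1 family share differed by -0.749 percentage points. When single mice were left out, the Bnip3 family share differed by -8.89 to -3.54 percentage points, with an adjusted exact permutation p of 0.0476 without wild-type mouse 3, and the share of the most abundant transcript by -3.17 to 2.47 for Hif1a, -2.45 to 1.68 for Vegfa and -0.834 to 0.712 for Pgk1. The median correlation among the genes, 0.68, was 0.58 after median ratio scaling and 0.40 without the 2 mice farthest in the first gene of each pair. It was 0.38 without wild-type mouse 1, a choice made after seeing the data. Over the genes tested, mice of the same replicate number did not deviate together (correlations of -0.107, -0.0066, -0.144, 0.0564 and 0.0207). This check cannot exclude that mice of the same number share a litter or batch, which the labels do not give. With the replicate block, 0 genes passed adjustment, and 4 of the 10 hypoxia response genes had an unadjusted limma p under 0.05, Hif1a (0.0475), Egln3 (0.0356), Adm (0.0378) and Bnip3 (0.0138), all lower, against 5.12% of all genes. The cause of these shifts was not tested.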
